A study of Mus musculus with 6 samples.

Results

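The genes described here are 42 cell-cycle genes, of 28048 genes in the count tables, taken from a fixed list of symbols: 20 genes used in S phase and 22 genes used in G2 and mitosis. They were read in 6 single-cell libraries of T-cell progenitors grown from mouse bone marrow. The sorted starts were DN1, defined as CD44+CD25-, DN2a, defined as CD44+CD25+ cells that were Bcl11b-, and DN2b, the Bcl11b+ cells of the same CD44+CD25+ gate, each from WT or ΔTE bone marrow cultures. After 4 further days on the stromal line OP9-DL1, cells were fixed in paraformaldehyde and read by sci-RNA-seq3, a method that tags nuclei well by well over several rounds and counts RNA by molecular tags (UMIs). ΔTE mice lack the timing enhancer of Bcl11b, a regulator of T-cell commitment, on both alleles. Mice of both genotypes carry an mCitrine (YFP) reporter knocked into Bcl11b, which the sort of DN2a from DN2b used. OP9-DL1 comes from bone marrow and displays the Notch ligand DL1, and the medium contained the cytokines Flt3-L and IL-7 and, by the study's methods for the experiments that include these libraries, also IL-2, SCF and IL-15. Marrow was pooled from several adult mice per genotype, and the study used both sexes in its experiments. Whether the starts of a genotype shared a pool is not stated.

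There was 1 library for each of the 6 conditions. Without replicates, no difference below carries a test. The 3 reverse-transcription wells of a library are technical parts of 1 culture, used only for how far they differ. The cells used had 200 or more genes, a UMI count up to 2000 and a mitochondrial share up to 30%. There were 60671 of them, between 3401 (ΔTE, DN2b start) and 19489 (WT, DN2a start) per library, with median depths of 386 to 485 UMIs per cell. The WT DN2a library stood apart. Its median mitochondrial share was 13.3%, against 20.9% to 23.9% in the other 5, and the mitochondrial limit removed 2.59% of its cells, against 26.8% to 56.6%. Summed markers of stromal cells ran from 476 to 3117 CPM (defined below) over the libraries, highest in WT DN2a, and all 14 markers of the stromal list were detected. No cell barcode was shared between libraries.

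Cells copy their DNA in S phase and divide in mitosis, with the gap phase G2 between them. S-phase genes are transcribed mostly under E2F factors around the entry into S phase, and encode the helicase that opens DNA, the polymerases that copy it and the enzymes that make its building blocks. Genes of G2 and mitosis come on later, many through promoter elements called CHR and CCAAT boxes, and encode the cyclins, kinases, motors and chromosome proteins of division. Early T-cell progenitors divide many times in the DN1 and DN2 stages, so both programs are active in this tissue.

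The promoters of the 2 lists differ in these elements. The RefSeq promoter table (GRCm38.p6, 250 bases before to 50 after the start of a gene, the first listed start where there were several) held 34 of the 42 members, 16 S and 18 G2/M. CHR elements, spelled TTTGAA, as well as CCAAT boxes and E2F sequences (TTTCCCGC, TTTCGCGC, TTTGGCGC or TTTGCCGC) were searched on both strands. E2F sequences stood in 7 of 16 S promoters (43.8%), in 1 of 18 G2/M promoters (5.56%, Cdk1) and in 2.32% of 27025 promoters. CHR stood in 2 of 16 S promoters (12.5%), in 14 of 18 G2/M promoters (77.8%) and in 18.1% of all promoters. CCAAT boxes stood in 75% of S promoters, 83.3% of G2/M promoters and 37.9% of all. Both CHR and CCAAT were found in 12 of 18 G2/M promoters (66.7%) and in 7.12% of all promoters. A match is a description of letters and not a measured binding site.

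Promoters of 3 S and 3 G2/M genes are shown to let the elements be seen in place: Top2a, Mki67, Pola1, Mcm6 and Mcm3 are among the 6 members with the most UMIs of their list, and Ccnb2 is a mitotic cyclin. They were chosen after their matches were known. Each is given 5′ to 3′ on the strand of the gene from 250 bases before to 30 after its start, with CHR, CCAAT and E2F matches on either strand in capitals. Read from the other strand, CHR is TTCAAA and the CCAAT box is ATTGG, and the E2F sequences include GCGGGAAA, GCGCGAAA and GCGCCAAA, and the first E2F run of Mcm6 is 2 overlapping matches. The intervals, all on the minus strand, are chr11:99024160-99024439 for Top2a, chr7:135716350-135716629 for Mki67, chr9:70421525-70421804 for Ccnb2, chr1:128359676-128359955 for Mcm6, chr1:20820283-20820562 for Mcm3 and chrX:93632126-93632405 for Pola1.
Top2a (G2/M): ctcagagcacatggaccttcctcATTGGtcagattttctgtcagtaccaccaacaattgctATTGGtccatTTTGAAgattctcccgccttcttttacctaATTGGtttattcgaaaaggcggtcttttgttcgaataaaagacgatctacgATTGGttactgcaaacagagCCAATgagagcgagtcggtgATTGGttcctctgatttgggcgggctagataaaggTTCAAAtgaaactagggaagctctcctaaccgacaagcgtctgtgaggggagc
Mki67 (G2/M): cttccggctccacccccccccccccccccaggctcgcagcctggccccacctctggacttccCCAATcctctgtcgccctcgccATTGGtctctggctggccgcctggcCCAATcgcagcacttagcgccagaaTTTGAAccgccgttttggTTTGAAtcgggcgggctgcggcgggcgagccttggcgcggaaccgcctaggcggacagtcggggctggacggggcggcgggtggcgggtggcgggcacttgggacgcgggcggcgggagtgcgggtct
Ccnb2 (G2/M): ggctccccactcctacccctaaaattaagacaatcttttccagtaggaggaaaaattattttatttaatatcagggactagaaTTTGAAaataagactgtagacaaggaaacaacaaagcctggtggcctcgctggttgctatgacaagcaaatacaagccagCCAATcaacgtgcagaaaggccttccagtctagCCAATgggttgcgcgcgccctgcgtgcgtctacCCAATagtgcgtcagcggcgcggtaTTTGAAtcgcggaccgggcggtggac
Mcm6 (S): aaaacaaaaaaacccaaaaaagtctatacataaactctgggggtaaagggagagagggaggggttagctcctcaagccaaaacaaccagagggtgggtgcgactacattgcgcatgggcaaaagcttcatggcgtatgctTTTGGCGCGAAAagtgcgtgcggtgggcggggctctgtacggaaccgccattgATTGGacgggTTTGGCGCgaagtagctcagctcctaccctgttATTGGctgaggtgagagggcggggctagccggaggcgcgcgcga
Mcm3 (S): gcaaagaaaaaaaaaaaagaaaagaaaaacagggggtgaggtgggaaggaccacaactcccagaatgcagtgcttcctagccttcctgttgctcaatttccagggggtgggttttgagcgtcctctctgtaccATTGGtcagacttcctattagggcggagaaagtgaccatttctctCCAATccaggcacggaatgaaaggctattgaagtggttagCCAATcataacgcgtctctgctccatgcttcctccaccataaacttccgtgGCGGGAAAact
Pola1 (S): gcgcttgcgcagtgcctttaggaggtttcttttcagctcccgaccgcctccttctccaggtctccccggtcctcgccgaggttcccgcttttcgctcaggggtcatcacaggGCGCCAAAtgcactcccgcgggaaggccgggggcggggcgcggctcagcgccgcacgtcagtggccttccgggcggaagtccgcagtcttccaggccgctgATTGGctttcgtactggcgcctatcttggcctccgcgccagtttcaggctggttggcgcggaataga
As chosen, the 3 S promoters hold E2F sequences and CCAAT boxes and no CHR, and the 3 G2/M promoters hold CHR and CCAAT boxes and no E2F sequence.

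All 42 members were detected in every library and all passed the minimum of 20 UMIs used for ratios. Together they took 225949 of 25419834 non-mitochondrial UMIs, 0.889%, of which 38.5% fell on S and 61.5% on G2/M genes. Levels below are CPM, UMIs per 1e6 non-mitochondrial UMIs of the library, with 95% exact Poisson intervals that cover counting error only. In summed libraries, fewer dividing cells and less cell-cycle RNA per cell cannot be told apart. S genes ranged from 1021 UMIs over all libraries (Gins2, a subunit of the helicase complex) to 11245 (Pola1, the catalytic subunit of DNA polymerase alpha). G2/M genes ranged from 1450 UMIs (Cdc20, an activator of the anaphase-promoting complex) to 27943 (Top2a, the topoisomerase that untangles chromosomes), and Top2a, Mki67 and Smc4 made up 48.5% of the G2/M UMIs. Per kilobase of gene span (GENCODE M21, GRCm38), the highest levels were 35.2 CPM per kb for Pcna, the sliding clamp of the polymerases, and 35.2 CPM per kb for Top2a. Next came 29.8 for Mki67, 26.8 for Rrm2 and 25.5 for Smc4. The lowest were 1.10 CPM per kb for Brip1, a DNA helicase, and 1.35 for Pola1, whose span of 327 kb is the longest of the members. Pola1 thus had the most UMIs of the S list and a level per kb of span near the lowest. Whether UMI counts follow gene span was not tested.

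The S sum was nearly the same in all libraries, and the G2/M sum was not. The S sum was 3489 CPM (3435 to 3543) in WT DN1, 3420 (3379 to 3462) in WT DN2a and 3574 (3494 to 3656) in WT DN2b. In ΔTE it was 3358 CPM (3305 to 3411) from DN1, 3362 (3312 to 3414) from DN2a and 3360 (3262 to 3461) from DN2b. Over all 18 wells the S sum lay between 3268 and 3723 CPM, so that the highest well was 1.14 times the lowest.

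The G2/M sum was higher from the DN2b than from the DN1 start in both genotypes, with DN2a between them. It was 4716 CPM (4653 to 4778) in WT DN1, 5707 (5654 to 5761) in WT DN2a and 6570 (6461 to 6680) in WT DN2b. In ΔTE it was 5082 CPM (5017 to 5147) from DN1, 5407 (5343 to 5472) from DN2a and 6534 (6397 to 6674) from DN2b. The 6 DN2b wells lay between 6213 and 6882 CPM, above all 6 DN1 wells, which lay between 4575 and 5195 CPM, while the 6 DN2a wells spread from 4649 to 5804 CPM and overlapped the DN1 wells through 1 well of ΔTE. The number of G2/M UMIs per S UMI was accordingly 1.35, 1.67 and 1.84 in WT and 1.51, 1.61 and 1.94 in ΔTE, in the order DN1, DN2a and DN2b.

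**Figure D1:**
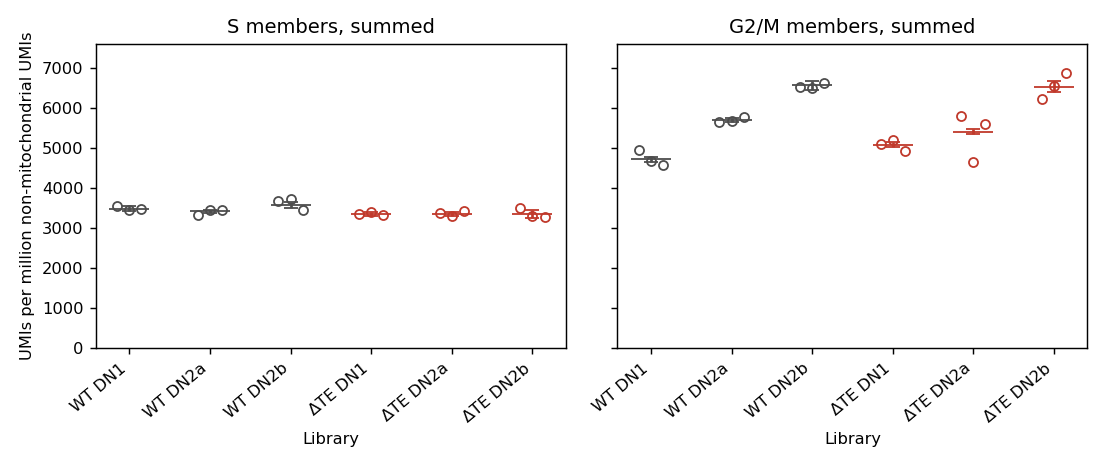
Summed UMIs of the 20 S genes (left) and 22 G2/M genes (right) as CPM in each library, WT in grey and ΔTE in red. Open circles are the 3 wells of a library, and the wide dash with its bar is the library with its 95% Poisson interval, which covers counting error only. The S sums form a flat row, and all DN2b wells of the G2/M sum lie at 6213 CPM or above, over every DN1 well.

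In log2 ratios, the G2/M sum of the DN2a start was above that of the DN1 start by 0.28 (interval of counting error 0.25 to 0.30) in WT and by 0.09 (0.06 to 0.11) in ΔTE, and that of the DN2b start was above DN2a by 0.20 (0.18 to 0.23) in WT and 0.27 (0.24 to 0.31) in ΔTE. The step from DN1 to DN2a in ΔTE moved with the wells of the DN2a library: it was -0.0038 without B01, the well with the highest sum, and 0.17 without B02, the lowest and the richest in stroma-like cells. The step from DN2a to DN2b in WT depended on the cells and the total used: it was 0.05 with no mitochondrial limit, 0.05 with mitochondrial genes in the total and 0.03 (-0.008 to 0.07) with T-like, ILC-like, myeloid-like and stroma-like cells (below) left out. In ΔTE that last setting gave 0.07 (0.01 to 0.14). These steps are small beside 1.5-fold. Of the 22 G2/M genes, 0 passed 1.5-fold in either direction from DN1 to DN2a in WT, against a background of 15.2% higher and 5.67% lower among 12148 genes tested. Likewise 0 passed in ΔTE (background 12.2% higher and 5.13% lower), 0 from DN2a to DN2b in WT (3.42% and 13.9%) and 1, Cenpf, in the higher direction in ΔTE (5.23% and 13.9%). No S gene passed in any of these 4 comparisons. The direction was nonetheless shared by most G2/M genes: 18 of 22 were above 0 from DN1 to DN2a in WT and 17 in ΔTE, and 18 and 21 from DN2a to DN2b. The median G2/M gene stood at 0.25, 0.10, 0.17 and 0.25 in these 4 comparisons, beside medians over all genes of 0.01, -0.01, -0.05 and -0.04. Comparisons that share the DN2a library are not independent of each other.

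Stromal cells and the mitochondrial share moved with these differences, and their part was not tested. Cells of the stroma-like clusters, which had low sums of both lists (below), made up 10.2% of WT DN2a cells and 6.36% of ΔTE DN2a cells, against 1.62% to 3.6% in the other 4 libraries. Without them, the step from DN1 to DN2a was 0.39 in WT and 0.16 in ΔTE, and that from DN2a to DN2b was 0.11 in WT and 0.21 in ΔTE. Within libraries, G2/M sums were higher in cells with a larger mitochondrial share. In WT DN1 cells, the G2/M sum was 3764 CPM (3601 to 3934) at no more than 15% mitochondrial UMIs and 4937 CPM at 25% to 30%, and in WT DN2b cells it was 5101 and 6864 CPM. WT DN2a had 5768 CPM at no more than 15% and 5026 CPM at 25% to 30%, a bin in which 24.0% of its cells were stroma-like, and without stroma-like cells it had 6269 and 6606 CPM. When cells were compared at like mitochondrial share, the DN2b sum was above the DN1 sum of the same genotype in each of the 4 bins. The order of DN2a and DN2b in WT was not kept: at no more than 15% mitochondrial UMIs, WT DN2a was at 5768 CPM and WT DN2b at 5101 CPM.

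**Figure D2:**
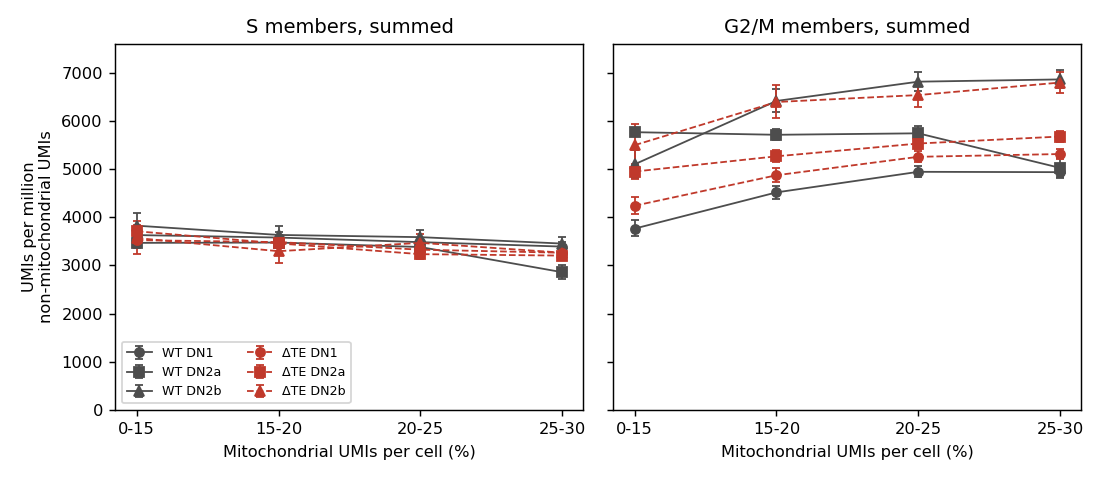
S sum (left) and G2/M sum (right), in CPM, against the mitochondrial share of the cells in 4 bins, for the 6 libraries (WT grey, ΔTE red; circles DN1, squares DN2a, triangles DN2b). Bars are 95% Poisson intervals of counting error. G2/M sums of all cells are higher in the last bin than in the first in 5 libraries and not in WT DN2a, which goes from 5768 to 5026 CPM, and from 6269 to 6606 CPM when its stroma-like cells, included in the plot, are left out.

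The S genes did not all order the starts alike. In both genotypes the DN2b libraries were above the DN1 libraries for 10 of 20 S genes: Mcm2, Mcm3, Mcm4, Mcm5, Mcm6, Pcna, Tyms, Rrm1, Rrm2 and Uhrf1. They were below them for 7: Gins2, Cdc6, Hells, Rfc2, Pola1, Chaf1b and Exo1. Among 11953 genes tested, 24.7% were higher and 32.6% lower in this sense. By the stricter reading over the 6 wells of each start, 3 S genes (Pcna, Rrm2 and Uhrf1) had all DN2b wells above all DN1 wells and 1 (Rfc2) had all below, against 5.19% and 7.26% of all genes. For the G2/M list the same counts were 18 of 22 higher and 2 lower (Kif20b and Anln) over libraries, and 10 higher (Mki67, Top2a, Cenpf, Aspm, Tpx2, Ccnb2, Ccna2, Plk1, Nusap1 and Smc4) and 1 lower (Anln) over wells. The shares over all genes include genes with as few as 20 UMIs over these libraries. They were not matched to the depth of the members, so no excess of S or G2/M genes over them is read from the counts.

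**Figure D3:**
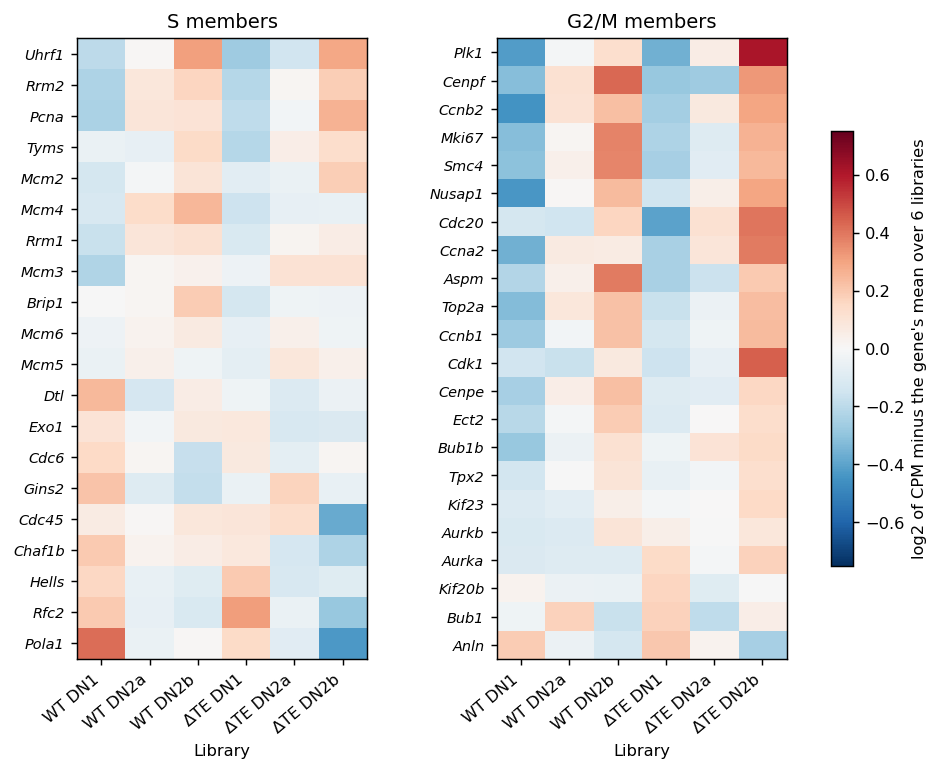
Level of each member in each library as log2 CPM minus the mean of that gene over the 6 libraries, for S genes (left) and G2/M genes (right), ordered by their DN2b minus DN1 difference. Red is above and blue below the mean of the gene. Most G2/M rows go from blue at DN1 to red at DN2b, from Plk1 at the top to Anln at the bottom, while the S rows run from Uhrf1, Rrm2 and Pcna at the top to Hells, Rfc2 and Pola1 at the bottom.

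Of the 5 members that encode subunits of the replicative helicase ring, Mcm5 and Mcm6 were nearly level, and Mcm2, Mcm3 and Mcm4 varied by 1.25-, 1.26- and 1.33-fold between their lowest and highest library. Mcm6, a subunit of the MCM2-7 helicase, was at 393, 412 and 423 CPM in WT from the DN1, DN2a and DN2b starts and at 387, 416 and 396 CPM in ΔTE, in the same order used for all genes below. Its highest library was 1.09 times its lowest, the narrowest range of all S genes. Mcm5, of the same ring, was at 188, 199 and 189.8 CPM in WT and 185, 206 and 199 CPM in ΔTE. Mcm3 was at 187, 221 and 224 CPM in WT and 213, 236 and 236 CPM in ΔTE, the DN1 libraries being the lowest of each genotype. Mcm2 was at 128, 138 and 149 CPM in WT and 132, 135 and 159 CPM in ΔTE. Mcm4 was at 106, 126 and 136 CPM in WT and 103, 109.9 and 110.3 CPM in ΔTE, so that its WT libraries from DN2a and DN2b lay above all 3 ΔTE libraries. The MCM genes did not all order the libraries alike.

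The polymerase and nucleotide genes showed both directions. Pola1 was at 566, 408 and 426 CPM in WT and 467, 398 and 313 CPM in ΔTE, the widest range of the S list at 1.81-fold, highest in WT DN1 and lowest in ΔTE DN2b. Rrm1, the large subunit of ribonucleotide reductase, was at 245, 293 and 297 CPM in WT and 254, 279 and 286 CPM in ΔTE. Its partner Rrm2 was at 137, 170.1 and 179 CPM in WT and 138, 162 and 183 CPM in ΔTE. Both reductase genes were lowest in the DN1 libraries. Pcna was at 126, 158 and 159.6 CPM in WT and 130.3, 146 and 178 CPM in ΔTE, and Uhrf1, which recognises hemimethylated DNA, was at 158, 183 and 224 CPM and at 151, 164 and 221 CPM. Pcna and Uhrf1 were higher at each later start in both genotypes, as were Rrm1, Rrm2, Mcm2 and Mcm4. Some of these steps had intervals that held 0, such as that of Pcna from DN2a to DN2b in WT, at a log2 ratio of 0.01 (-0.17 to 0.19).

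Of the chromatin and loading factors, Hells, a chromatin remodeler, was at 275, 238 and 232 CPM in WT and 283, 227 and 232 CPM in ΔTE, highest in both DN1 libraries. Chaf1b, a subunit of the histone chaperone CAF-1, was at 59.3, 52.7 and 53.8 CPM in WT and 54.8, 47.4 and 44.1 CPM in ΔTE. Gins2 was at 45.8, 37.0 and 34.9 CPM in WT and 38.2, 44.4 and 38 CPM in ΔTE, with no common order in the genotypes. The other S genes lay between 36.8 CPM (Cdc6 in WT DN2b) and 214 CPM (Dtl in WT DN1).

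The most abundant G2/M genes shared one pattern. Top2a was at 896, 1192 and 1309 CPM in WT and 999, 1089 and 1318 CPM in ΔTE. Mki67, the source of the Ki-67 protein that coats mitotic chromosomes, was at 659.7, 830.3 and 1064 CPM in WT and 702, 769.5 and 987 CPM in ΔTE. Smc4, a condensin subunit, was at 638, 811 and 1017 CPM in WT and 664, 744 and 934 CPM in ΔTE. All 3 were lowest from DN1 and highest from DN2b in both genotypes, and in all 3 the spread between the starts was narrower in ΔTE than in WT.

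Genes of the kinetochore and spindle differed in how far they followed this pattern. Cenpe, a kinetochore motor, was at 271, 333 and 375 CPM in WT and 300.3, 302 and 358 CPM in ΔTE. Cenpf, a kinetochore-associated protein, was at 195, 263 and 329 CPM in WT and 199.9, 202 and 304 CPM in ΔTE, where the DN1 and DN2a libraries were nearly equal. Aspm, a spindle-pole protein, was at 116, 139 and 178 CPM in WT and 115, 121 and 155 CPM in ΔTE. Tpx2, a spindle assembly factor, was at 278, 305 and 326 CPM in WT and 294, 301 and 333 CPM in ΔTE. Kif23, a kinesin of the midzone, was at 236, 239 and 260.1 CPM in WT and 249.6, 253 and 279.9 CPM in ΔTE. Bub1, a kinase of the spindle checkpoint, was at 73.1, 84.5 and 66.6 CPM in WT and 84.2, 65.5 and 77.6 CPM in ΔTE, so that the DN2a library was its highest in WT and its lowest in ΔTE. The intervals of Tpx2 and of Kif23 from DN2a to DN2b held 0 in both genotypes.

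Kinases of mitosis differed from each other. Plk1, a mitotic kinase, was at 66.8, 88.5 and 97.7 CPM in WT and 69.8, 93.0 and 137 CPM in ΔTE, the widest range of all members at 2.05-fold. Cdk1, the kinase that drives entry into mitosis, was at 109, 108 and 127 CPM in WT and 108, 116 and 164 CPM in ΔTE. Aurka, a kinase of the spindle poles, was at 67.0, 67.4 and 67.5 CPM in WT and 79.9, 71.5 and 81.4 CPM in ΔTE. Plk1 and Cdk1 were highest in ΔTE DN2b, while Aurka was level over the starts in WT. Of the mitotic cyclins, Ccnb1 was at 76.3 to 109 CPM, Ccnb2 at 86.4 to 145 and Ccna2 at 89.0 to 149.9 over the libraries, each lowest in WT DN1 and highest in ΔTE DN2b. The cytokinesis gene Anln ran the other way, from 172 CPM in ΔTE DN1 to 126 CPM in ΔTE DN2b. Over the whole G2/M list, 16 of 22 genes were lowest in WT DN1, and 12 were highest in ΔTE DN2b and 7 in WT DN2b.

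Deletion of the timing enhancer was set against WT for each start. The S sum of ΔTE was below that of WT by small amounts, with log2 ratios of -0.06 (-0.09 to -0.02) for the DN1 start, -0.02 (-0.05 to 0.003) for DN2a and -0.09 (-0.14 to -0.04) for DN2b. The 3 ΔTE wells of the DN1 start (3323 to 3408 CPM) lay below the 3 WT wells (3452 to 3549 CPM), and for the other 2 starts the wells of the genotypes overlapped. Without Pola1 the ratio of the DN1 start was -0.02. The DN2a ratio was -0.08 (-0.11 to -0.05) without stroma-like cells and -0.15 with mitochondrial genes in the total. For DN2b it was -0.14 in cells with at least 300 genes, -0.14 without WT well A09 and -0.16 with T-like, ILC-like, myeloid-like and stroma-like cells left out.

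The G2/M sum of ΔTE was above WT for the DN1 start and below it for the DN2a start. The log2 ratios were 0.11 (0.08 to 0.13) for DN1, -0.08 (-0.10 to -0.06) for DN2a and -0.01 (-0.05 to 0.03) for DN2b. Over all cells, the wells of the genotypes overlapped in all 3 starts. For the DN2a start the ΔTE wells were at 4649, 5597 and 5804 CPM and the WT wells at 5659, 5688 and 5773 CPM, and without the lowest ΔTE well, B02, the ratio was 0.01 (-0.02 to 0.03). In that well 14.0% of cells were stroma-like, against 2.86% and 1.87% in the other 2 wells of the library, and the mitochondrial share was 17.2% against 22.3% and 24.0%. Stroma-like cells are defined below. With them left out of all libraries, the DN2a ratio was -0.13, and the ΔTE wells, at 5450 to 5920 CPM, lay below the WT wells at 6225 to 6366 CPM. When well B02 was left out too, the ratio was -0.11 (-0.13 to -0.08).

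No member passed 1.5-fold between the genotypes in any start. Of the 20 S genes and the 22 G2/M genes, 0 were past it in either direction for DN1 (background 3.15% higher and 5.07% lower), for DN2a (3.68% and 8.39%) and for DN2b (5.86% and 8.45%). These backgrounds include genes with as few as 20 UMIs. In simulated counts, 4.33%, 3.40% and 6.19% of unchanged genes passed 1.5-fold by counting error alone. Among 11435 genes tested for DN1 the median log2 ratio was -0.01, beside -0.03 for S and 0.11 for G2/M genes, of which 19 of 22 were above 0. For DN2a the medians were -0.02 over 12197 genes, -0.04 for S and 0.0003 for G2/M genes, of which 11 were above and 11 below 0. For DN2b they were -0.01 over 10058 genes, -0.04 for S and 0.03 for G2/M genes, of which 14 were above 0. These counts and medians moved when stroma-like cells were left out. For DN2a, 8 G2/M genes were then above and 14 below 0 (median -0.06), and 4 S genes above and 16 below (median -0.10). For DN2b, 11 G2/M genes were above and 11 below 0, and for DN1 19 stayed above. Over all cells, the intervals of counting error lay above 0 for 7, 1 and 3 G2/M genes and below 0 for 0, 7 and 2, in the order DN1, DN2a and DN2b. For S genes they lay above 0 for 1, 1 and 0 and below 0 for 2, 2 and 3. Over all genes tested, the intervals lay above 0 for 7.89%, 10.2% and 9.11% and below 0 for 8.68%, 14.9% and 9.7%. Genes with more UMIs have narrower intervals, and these shares include genes with as few as 20 UMIs. They were not matched to the depth of the members, so no excess of members over them is read from the counts.

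**Figure D4:**
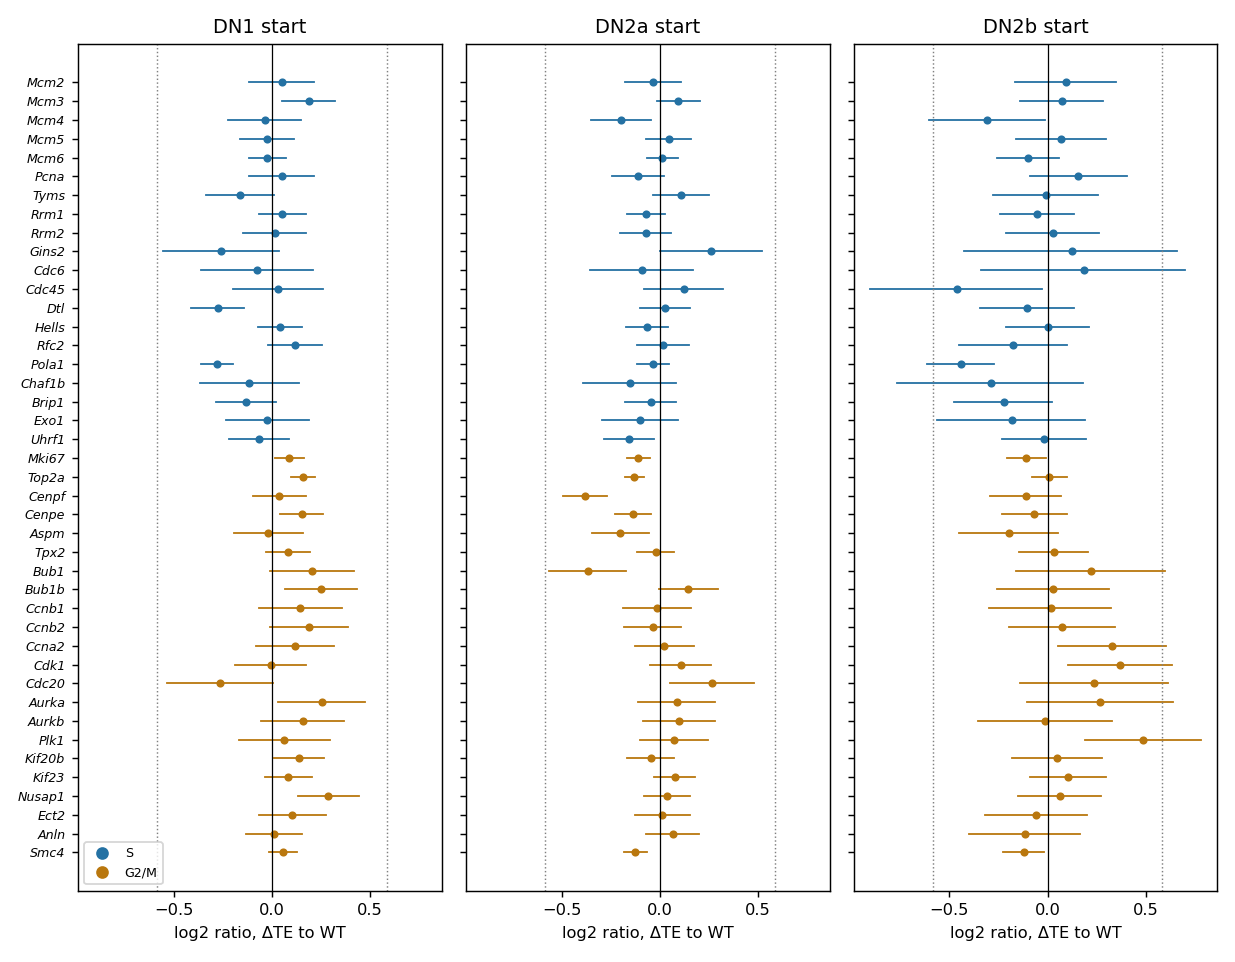
Log2 ratio of ΔTE to WT for each of the 42 members (S blue, G2/M ochre) for the 3 starts, with 95% intervals of counting error. The solid line is no difference and the dotted lines are 1.5-fold in either direction. Every point lies inside the dotted lines, the G2/M points lean to the right for the DN1 start, and Pola1 lies left of 0 for the DN1 and DN2b starts.

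Averaged over the 3 starts, Pola1, Chaf1b and Mcm4 had the lowest ratios of ΔTE to WT among S genes, and Mcm3, Gins2 and Mcm2 the highest. Pola1 was at -0.28 (-0.36 to -0.20) for DN1, -0.03 (-0.12 to 0.05) for DN2a and -0.44 (-0.62 to -0.27) for DN2b. Chaf1b was at -0.11, -0.15 and -0.29 with intervals that held 0. Mcm4 was at -0.04, -0.20 (-0.35 to -0.05) and -0.31 (-0.60 to -0.01). Mcm3 was above 0 in all 3 starts, at 0.19 (0.05 to 0.32), 0.09 and 0.07, and was the 1 S gene of which this held, while 6 of 20 S genes were below 0 in all 3. Of 10010 genes tested in all starts, 18.4% were above and 21.6% below 0 in all 3.

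Among G2/M genes the highest averages were those of the kinases Plk1, Aurka and Cdk1, and the lowest those of Cenpf, Aspm and Smc4. Plk1 was at 0.06, 0.07 and, for DN2b, 0.49 (0.19 to 0.78). Aurka was at 0.25 (0.03 to 0.48), 0.09 and 0.27. Cdk1 was at -0.01, 0.11 and 0.37 (0.11 to 0.64). The ratios of Plk1 and Cdk1 away from 0 were thus those of the DN2b start, the libraries with the fewest cells. In that start the Cdk1 wells of the genotypes overlapped, at 106 to 208 CPM in ΔTE and 116 to 145 CPM in WT. The Plk1 wells did not, at 119 to 160 CPM in ΔTE and 81.7 to 115 CPM in WT. Cenpf was at 0.04, -0.38 (-0.49 to -0.27) and -0.11, and Aspm at -0.02, -0.20 and -0.20. Of the G2/M genes, 6 were above 0 in all 3 starts and 1 was below 0 in all 3, whereas 18.4% of 10010 genes tested in all starts were above and 21.6% below 0 in all 3.

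Shares of cells were compared at equal depth. After each cell was thinned to 200 non-mitochondrial UMIs, which left out 2 cells in all, a G2/M UMI was found in 53.0% (52.1 to 53.9) of WT DN1 cells, 59.7% of WT DN2a cells and 59.9% (58.5 to 61.2) of WT DN2b cells. In ΔTE the shares were 55.9%, 56.4% and 62.5%. At least 3 G2/M UMIs were found in 8.74% (8.22 to 9.29), 14.0% and 17.1% (16.1 to 18.2) of WT cells and in 10.8%, 12.4% and 16.9% (15.7 to 18.2) of ΔTE cells. The share with an S UMI was 46.8% to 48.2% in all 6 libraries. Without thinning, the shares were 70.3% to 76.1% for G2/M and 64.3% to 69.6% for S. A G2/M UMI was present in 50.9% to 61.2% of cells with an S UMI and in 55.0% to 63.7% of cells without one, so at this depth single cells could not be sorted into phases by the presence of a UMI. Without thinning, stromal marker UMIs, which T-cell progenitors should lack, were found in 6.67% of T-like cells at a median of 313 non-mitochondrial UMIs. In the same cells an S UMI was found in 66.5% and a G2/M UMI in 76.0%. The stromal share sets no floor for stray cell-cycle RNA: stroma-like cells were 5.66% of all cells, whereas most cells held cell-cycle UMIs.

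Cells were clustered without the cell-cycle genes, and clusters were named from marker lists. Of the clusters, 4 were T-like (13349 cells), 1 ILC-like (innate lymphoid cells, 3106 cells), 2 progenitor-like (4387), 1 myeloid-like (879) and 3 stroma-like (3436), and 35514 cells stayed unnamed. G2/M sums differed between these classes far more than between the genotypes. Summed over all libraries, the ILC-like cells had 7415 CPM (7261 to 7572), the T-like cells 6524 (6453 to 6596), the progenitor-like cells 5909 (5794 to 6027), the myeloid-like cells 5709 (5460 to 5967), the unnamed cells 5341 (5304 to 5377) and the stroma-like cells 1930 (1866 to 1995). S sums followed another order, with 3708 CPM in T-like, 3592 in unnamed, 3362 in progenitor-like, 3249 in ILC-like, 2855 in myeloid-like and 1410 CPM in stroma-like cells. Libraries gave the classes different shares of their cells, so the order was also read within libraries. In each of the 6, the G2/M sum of ILC-like cells was above that of T-like cells, that of T-like cells above that of unnamed cells, and that of stroma-like cells the lowest. The order of ILC-like and T-like cells was not kept in every well. In well A10 of ΔTE DN1, ILC-like cells were at 4696 CPM and T-like cells at 5590, and ILC-like cells were also lower in wells A01, B02 and B05. In WT DN1 the ILC-like sum rested on 50 cells, and its interval of 4999 to 7331 CPM held the T-like sum. The place of the progenitor-like and myeloid-like cells was not fixed: myeloid-like cells were at 4781 CPM in WT DN1, below T-like cells at 5143, and at 8032 CPM (6794 to 9430, 52 cells) in WT DN2a, above T-like cells at 6722.

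**Figure D5:**
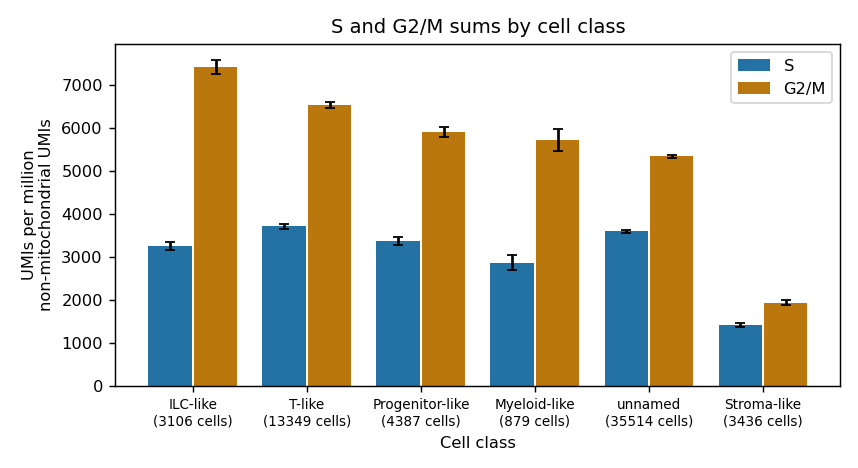
Summed S (blue) and G2/M (ochre) UMIs as CPM in the 5 named cell classes and the unnamed cells, over all libraries, with 95% Poisson intervals of counting error. G2/M bars go from 7415 CPM in ILC-like to 1930 CPM in stroma-like cells, and the S bars of the classes other than stroma-like lie between 2855 and 3708 CPM.

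Set against the unnamed cells over all libraries, 20 of 22 G2/M genes were higher in ILC-like cells, 6 of them past 1.5-fold (background 44.9% above 0 and 13.2% past 1.5-fold), with Plk1 at 0.88 and Cenpf at 0.84 on the log2 scale. In the T-like cells 18 of 22 were higher (background 46.4%) and 0 past 1.5-fold (6.77%). The S list was split in ILC-like cells: Rrm2 was at 0.55, while 5 of 20 S genes were lower by over 1.5-fold (background 17.9%), among them Dtl, which marks replication factors for destruction, at -0.83 and Cdc6, which loads the helicase, at -0.82. In stroma-like cells all 42 members were lower, 41 of them past 1.5-fold, against 57% and 36.6% of all genes. These backgrounds include genes that the clustering used, which the members were not. The gene ratios pool all libraries and were not read within libraries, so they mix class with start. Unnamed cells were 71.9% of WT DN1 and 37.6% of WT DN2b cells, whereas ILC-like cells were 0.458% and 12.9%. The ILC-like cluster held 0.458% and 2.6% of WT cells from DN1 and DN2a and 12.9% from DN2b, and 1.00%, 8.25% and 25% of ΔTE cells. The T-like clusters held 7.2%, 27.1% and 38.5% of WT cells and 7.25%, 27.1% and 43.6% of ΔTE cells. Both classes with high G2/M sums were therefore larger in the later starts, and how far this accounts for the library sums was not tested.

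Within T-like cells the same order of starts was seen. The G2/M sum was 5143 CPM (4876 to 5421), 6722 (6604 to 6841) and 7147 (6957 to 7342) in WT and 5824 CPM (5542 to 6116), 6117 (5979 to 6258) and 6929 (6712 to 7152) in ΔTE. Between genotypes, T-like cells had log2 ratios of 0.18 (0.07 to 0.28) from DN1, -0.14 (-0.18 to -0.09) from DN2a and -0.04 (-0.10 to 0.02) from DN2b, ΔTE over WT. Its direction was that of whole libraries in each start. For the DN2a start the ΔTE T-like wells, at 5915 to 6347 CPM, lay below the WT wells at 6647 to 6819 CPM. Clusters 5, 6 and 9 held most T-like cells of both DN2a libraries. Within ILC-like cells the G2/M sum was 8055 CPM (7643 to 8483) in WT DN2a and 6869 (6603 to 7143) in ΔTE DN2a, and 8101 (7758 to 8455) in WT DN2b and 7302 (7009 to 7604) in ΔTE DN2b. The ratios were -0.23 (-0.32 to -0.14) and -0.15 (-0.24 to -0.06), and the wells of the genotypes did not overlap for DN2a (5905 to 7211 CPM against 7804 to 8218) and overlapped for DN2b. The S sums of ILC-like cells had ratios of -0.06 (-0.20 to 0.09) and 0.03 (-0.10 to 0.17). From the DN1 start, only 50 WT and 103 ΔTE cells were ILC-like, which leaves the ratio of 0.11 (-0.22 to 0.45) undetermined.

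Other genes of the cell cycle were read from 3 further lists. Of 39 other S-phase genes, all were tested, and 0 passed 1.5-fold between genotypes for DN1 and DN2a and 1, Rad51ap1, was lower for DN2b. Of 59 other G2/M genes, 55 were tested, and 1 was higher for DN1 (Cdc25b), 0 for DN2a and 1 lower for DN2b (Psrc1). The background over all genes was 3.15% higher and 5.07% lower for DN1, 3.68% and 8.39% for DN2a and 5.86% and 8.45% for DN2b. The medians of the other G2/M genes were 0.08, -0.01 and 0.11 for the 3 starts, with 39, 26 and 37 of 55 above 0. The share above 0 was highest for DN1 in these genes and in the 22 members, but the medians differed. That of the other G2/M genes was highest for DN2b, where that of the members was 0.03. Cdc25b, a phosphatase that activates Cdk1, was at 35.8 CPM in ΔTE and 22.3 in WT for the DN1 start, a log2 ratio of 0.68 (0.32 to 1.05), and at 0.33 (0.08 to 0.58) and 0.22 for the later starts. Kif18b and Tacc3, genes of the spindle, had the next highest averages, with Tacc3 at 0.47 (0.17 to 0.76) for DN2b. The lowest averages were those of Psrc1 at -0.14, -0.36 and -0.90 (-1.97 to 0.08), Diaph3 and Ckap2. Psrc1 was at 59.4 CPM in stroma-like and 11.5 in other cells, and without stroma-like cells its DN2b ratio was -0.35.

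Among the other S-phase genes, the highest averages were those of the cyclin Ccne1, of Orc1 and of Slbp, and the lowest those of Pole, Ccne2 and Pold3. Ccne1 was at 0.31, 0.07 and 0.51 with intervals that held 0 in each start, and Orc1, the largest subunit of the origin recognition complex, at 0.07, 0.38 (0.11 to 0.64) and 0.36. Pole, the catalytic subunit of DNA polymerase epsilon, was at -0.22 (-0.38 to -0.06), -0.005 and -0.51 (-0.80 to -0.23), and Pold3, of DNA polymerase delta, at -0.01, 0.05 and -0.45 (-0.80 to -0.11). Pole and the polymerase gene Pola1 had their lowest ratios in the same start, DN2b, and were near 0 for DN2a over all cells. Without stroma-like cells, the DN2a ratios were -0.05 (-0.20 to 0.09) for Pole and -0.09 (-0.18 to -0.01) for Pola1.

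Of 43 cell-cycle regulators, 40, 42 and 40 were tested for the 3 starts. For DN1, 0 passed 1.5-fold, for DN2a 1 was higher and 4 lower, and for DN2b 2 were higher and 2 lower. Over all genes, 3.15% were higher and 5.07% lower for DN1, 3.68% and 8.39% for DN2a and 5.86% and 8.45% for DN2b. The counts for DN2a and DN2b were thus near the background, and the genes below are named only by the rule of highest and lowest averages. Ccnd1, a D-type cyclin of G1, had the lowest average, with 66.3 CPM in ΔTE and 71.1 in WT for DN1, 55.1 and 96.0 for DN2a, and 24.3 and 52.9 for DN2b. Its ratios were -0.10, -0.80 (-1.01 to -0.60) and -1.12 (-1.73 to -0.54). Ccnd1 was at 602 CPM in stroma-like cells and at 30.6 CPM in all others, and without stroma-like cells its ratios were -0.06, -0.16 (-0.62 to 0.30) and -0.94 (-2.14 to 0.13). E2f7, a repressor of E2F targets, was at -0.52, -0.68 (-1.32 to -0.07) and -0.51 on 42, 32 and 10 UMIs in ΔTE. Btg2, an antiproliferative gene, was at -0.20, -0.52 (-0.84 to -0.19) and -0.23, and at 92.4 CPM in stroma-like against 21.9 in other cells.

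The highest averages among regulators were those of Cdkn2c, Mycn and Pkmyt1. Cdkn2c, an inhibitor of the kinases Cdk4 and Cdk6, was at 36.5 CPM in ΔTE and 13.2 in WT for the DN2b start, on 48 and 28 UMIs, a ratio of 1.47 (0.76 to 2.19), and at -0.22 and 0.05 for DN1 and DN2a. Mycn, a growth-promoting transcription factor, was at 73.5 and 51.8 CPM for DN1, 63.9 and 39.4 for DN2a and 22.8 and 26.4 for DN2b, in ΔTE and WT. Its ratios were 0.51 (0.26 to 0.75), 0.70 (0.47 to 0.93) and -0.21 (-0.90 to 0.45). Pkmyt1, a kinase that holds Cdk1 inactive, was at -0.14, 0.27 (0.05 to 0.49) and 0.52 (0.08 to 0.95). Without stroma-like cells, Mycn was at 0.49 and 0.64 for the DN1 and DN2a starts and Cdkn2c at 1.39 for DN2b.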

How the data were processed

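Gene by cell tables of raw UMI counts, 1 per library, were used as deposited by the authors, who aligned and counted the sci-RNA-seq3 reads. The submitters' processing notes name mm9, and the aligner and counter are not given in the sources used here. Counts were not normalized before deposit. The cell limits were 200 or more genes, a UMI count up to 2000 and a mitochondrial share up to 30%, and doublets were not called beyond the UMI limit. UMIs of the members were summed per library and well and scaled to counts per 1e6 non-mitochondrial UMIs (CPM). Intervals are 95%: exact Poisson for levels, conditional exact for ratios and Clopper-Pearson for shares, and they cover counting error only. Groups came from the sample labels. With 1 library per condition no test was run. Genes with at least 20 UMIs over both libraries entered a ratio, and 1.5-fold was the threshold of size.

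Cells were clustered by the Leiden method without the cell-cycle genes. A cluster of at least 100 cells was named from markers at least 2-fold higher than in other cells, with at least 3 such markers and, among its 10 leading genes, no other class's markers or more of its own. This naming rule, the non-overlap counts of DN2b against DN1, the mitochondrial bins and the depth split were chosen after seeing the data. The members and lists were chosen with earlier results of these data known. Named members were the 6 with the most UMIs of each list and the 3 with the highest and the 3 with the lowest mean ratio of ΔTE to WT, and in the other lists the latter 6. Other members given with values were chosen by role after their values were seen. Gene spans came from GENCODE M21 (GRCm38) by gene identifier and promoters from RefSeq (GRCm38.p6), both another build than the authors', and no coordinate of theirs was used. The ratio script was tested on simulated counts: of genes set to 2-fold, 96.4%, 95.0% and 93.4% passed 1.5-fold in the ΔTE to WT comparisons of DN1, DN2a and DN2b (11340, 12098 and 9937 genes), as did 4.33%, 3.40% and 6.19% of unchanged genes. Alternatives were other cell limits, scalings, cell sets and members and the omission of each well. Other clusterings and thinning depths were also read. A cluster resolution of 0.6 moved 6 of 8 values, another random seed 4 of 6 and clustering with the cell-cycle genes kept 4 of 8. Thinning to 300 UMIs moved 12 of 12 values, as did no thinning. Values of cell classes and shares of cells thus depended on these settings.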

Additional observations from a re-analysis of the deposited data

Results flagged for a closer look

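The ratio of ΔTE to WT for the summed G2/M genes had opposite signs for 2 starts, which is why it is listed here: it was 0.11 on the log2 scale for DN1 and -0.078 for DN2a. The difference between the starts was itself not tested, because each condition was 1 library, and the DN2a value was 0.01 without well B02 of the ΔTE library, -0.13 without stroma-like cells and -0.11 without both.

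Barcodes outside the cell limits also held cell-cycle UMIs. In barcodes over the UMI limit the S sum was 2788 CPM and the G2/M sum 4598 CPM over all libraries. In barcodes over the mitochondrial limit they were 2552 CPM and 4504 CPM. These barcodes entered no comparison.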

How the results depend on the processing

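Values here are log2 ratios, for the S or G2/M sums of the comparisons named and for the G2/M to S ratio of single libraries, and those that turned sign or moved beyond the spread of the main value are given. The cause of these moves was not tested. Scaling by TMM and the limit of 2000 genes moved none of them. With at least 300 genes per cell, the S sum gave -0.0714 (DN2a to DN1 in WT), -0.14 (ΔTE to WT at DN2b). In the same setting, the G2/M sum gave 0.21 (DN2a to DN1 in WT), 0.27 (DN2b to DN2a in WT), -0.0268 (ΔTE to WT at DN2a). There, the G2/M to S ratio gave 0.52 (WT DN1), 0.80 (WT DN2a), 0.98 (WT DN2b), 0.69 (ΔTE DN1), 0.79 (ΔTE DN2a), 1.09 (ΔTE DN2b). With at most 15% mitochondrial UMIs, a limit chosen after seeing the data, the S sum gave -0.0661 (DN2a to DN1 in WT), 0.0739 (DN2a to DN1 in ΔTE), 0.14 (DN2b to DN2a in WT), -0.0561 (DN2b to DN2a in ΔTE), 0.0973 (ΔTE to WT at DN2a). Likewise, the G2/M sum gave 0.62 (DN2a to DN1 in WT), 0.22 (DN2a to DN1 in ΔTE), -0.18 (DN2b to DN2a in WT), 0.15 (DN2b to DN2a in ΔTE), 0.17 (ΔTE to WT at DN1), -0.22 (ΔTE to WT at DN2a), 0.11 (ΔTE to WT at DN2b). Of single libraries, the G2/M to S ratio gave 0.0525 (WT DN1), 0.42 (WT DN2b), 0.27 (ΔTE DN1), 0.42 (ΔTE DN2a), 0.62 (ΔTE DN2b). With the median member in place of the sum, the S sum gave 0.00181 (DN2a to DN1 in WT), 0.0994 (DN2a to DN1 in ΔTE). In the same setting, the G2/M sum gave 0.25 (DN2a to DN1 in WT), 0.17 (DN2b to DN2a in WT), 0.00032 (ΔTE to WT at DN2a). With no mitochondrial limit, the S sum gave 0.0862 (DN2a to DN1 in WT), -0.15 (DN2b to DN2a in WT), -0.0802 (DN2b to DN2a in ΔTE), -0.0103 (ΔTE to WT at DN1), -0.12 (ΔTE to WT at DN2a). Likewise, the G2/M sum gave 0.32 (DN2a to DN1 in WT), 0.0534 (DN2b to DN2a in WT), 0.19 (DN2b to DN2a in ΔTE), 0.0783 (ΔTE to WT at DN1), -0.14 (ΔTE to WT at DN2a). Of single libraries, the G2/M to S ratio gave 0.50 (WT DN1), 0.94 (WT DN2b), 0.72 (ΔTE DN2a). With T-like, ILC-like, myeloid-like and stroma-like clusters left out, the S sum gave 0.0736 (DN2a to DN1 in WT), 0.00388 (DN2b to DN2a in WT), -0.11 (ΔTE to WT at DN2a), -0.16 (ΔTE to WT at DN2b). In the same setting, the G2/M sum gave 0.34 (DN2a to DN1 in WT), 0.0317 (DN2b to DN2a in WT), 0.0741 (DN2b to DN2a in ΔTE), 0.0771 (ΔTE to WT at DN1), -0.15 (ΔTE to WT at DN2a), -0.11 (ΔTE to WT at DN2b). There, the G2/M to S ratio gave 0.69 (WT DN2a), 0.71 (WT DN2b), 0.56 (ΔTE DN1), 0.64 (ΔTE DN2a), 0.76 (ΔTE DN2b). With mitochondrial genes in the total, the S sum gave 0.12 (DN2a to DN1 in WT), -0.0846 (DN2b to DN2a in WT), -0.15 (ΔTE to WT at DN2a). Likewise, the G2/M sum gave 0.42 (DN2a to DN1 in WT), 0.0549 (DN2b to DN2a in WT), 0.23 (DN2b to DN2a in ΔTE), -0.20 (ΔTE to WT at DN2a). Without stroma-like cells, the S sum gave 0.0777 (DN2a to DN1 in WT), 0.0567 (DN2a to DN1 in ΔTE), -0.0227 (DN2b to DN2a in WT), -0.0543 (DN2b to DN2a in ΔTE), -0.0796 (ΔTE to WT at DN2a). In the same setting, the G2/M sum gave 0.39 (DN2a to DN1 in WT), 0.16 (DN2a to DN1 in ΔTE), 0.11 (DN2b to DN2a in WT), 0.21 (DN2b to DN2a in ΔTE), -0.13 (ΔTE to WT at DN2a). Without stroma-like cells and well B02, chosen after seeing the data, the S sum gave 0.0777 (DN2a to DN1 in WT), -0.0227 (DN2b to DN2a in WT), -0.12 (ΔTE to WT at DN2a). Likewise, the G2/M sum gave 0.39 (DN2a to DN1 in WT), 0.18 (DN2a to DN1 in ΔTE), 0.11 (DN2b to DN2a in WT), 0.18 (DN2b to DN2a in ΔTE), -0.11 (ΔTE to WT at DN2a). Of single libraries, the G2/M to S ratio gave 0.76 (ΔTE DN2a). Without Pola1 and Top2a, the members with the most UMIs, the S sum gave 0.0437 (DN2a to DN1 in WT), 0.0358 (DN2a to DN1 in ΔTE), -0.0153 (ΔTE to WT at DN1). In the same setting, the G2/M sum gave 0.24 (DN2a to DN1 in WT). There, the G2/M to S ratio gave 0.39 (WT DN1), 0.58 (WT DN2a), 0.74 (WT DN2b), 0.50 (ΔTE DN1), 0.54 (ΔTE DN2a), 0.78 (ΔTE DN2b). Leaving out 1 well at a time gave 0.24 to 0.31 for the G2/M sum, DN2a to DN1 in WT, -0.00378 to 0.17 for the G2/M sum, DN2a to DN1 in ΔTE, 0.19 to 0.37 for the G2/M sum, DN2b to DN2a in ΔTE, 0.0769 to 0.14 for the G2/M sum, ΔTE to WT at DN1, -0.17 to 0.00656 for the G2/M sum, ΔTE to WT at DN2a, -0.0459 to 0.0326 for the G2/M sum, ΔTE to WT at DN2b. It gave 0.81 to 0.91 for the G2/M to S ratio, WT DN2b, 0.60 to 0.76 for the G2/M to S ratio, ΔTE DN2a, 0.90 to 1.03 for the G2/M to S ratio, ΔTE DN2b, 0.0377 to 0.12 for the S sum, DN2b to DN2a in WT. At 1.2-fold in place of 1.5-fold, ΔTE differed from WT in 2 S and 2 G2/M members at DN1, 3 G2/M members at DN2a, and 4 S and 4 G2/M members at DN2b, against 26.7%, 32.5% and 41.7% of all genes tested. No member was past 2-fold. No paired analysis was possible because each condition was 1 library and no test was made. Depth limits single members most in ΔTE DN2b, which had 3401 cells, and intervals cover counting error only.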

Other observations

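Within libraries, the G2/M sum was higher in deeper cells and the S sum lower. When the cells of each library were split into 3 equal parts by depth, WT DN1 went from 3994 CPM of G2/M UMIs in the shallow part to 5128 CPM in the deep part, and WT DN2b from 5551 to 7092 CPM. In ΔTE, DN1 went from 4281 to 5570 CPM and DN2b from 6014 to 6887 CPM. WT DN2a was the flattest, at 5660 and 5736 CPM. The S sum of WT DN2a was 3701 CPM in the shallow and 3199 CPM in the deep part, and that of ΔTE DN2b 3863 and 3126 CPM. Stroma-like cells, which had low sums of both lists and were 10.2% of WT DN2a cells, were included in these parts. Over all libraries their median was 418 non-mitochondrial UMIs, against 313 in T-like and 369 in unnamed cells. Their part in the differences by depth was not tested. The split was made after seeing the data.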
